A study of Saccharomyces cerevisiae with 8 samples.

Results

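The citric acid cycle enzymes were represented by 10 genes, CIT1, ACO1, IDH1, IDH2, KGD1, KGD2, LSC1, LSC2, FUM1 and MDH1, out of 6225 genes on the array. They were chosen by name, as genes that encode enzymes of the mitochondrial cycle, and all 10 were found by the gene name or reading frame name of the array's gene probes. In the cycle, acetyl groups are joined to oxaloacetate to form citrate, which is oxidised step by step back to oxaloacetate while electrons pass to NADH and to the respiratory chain. Baker's yeast growing on glucose gains most of its energy by fermentation and holds many genes of the cycle and of respiration under glucose repression, and expression of these genes rises when glucose runs low. Aconitase carries an iron-sulfur cluster that oxidants can damage, and the 2-oxoglutarate dehydrogenase complex uses bound lipoic acid.

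The study compared Saccharomyces cerevisiae control cells with TFIIB mutant cells, both of strain CENPK.2-1C, and each strain was grown in YPD, a rich medium with glucose, without H2O2 or with 4 mM H2O2. TFIIB is a general transcription factor of RNA polymerase II that SUA7 encodes in yeast, and the mutant is called M1 in the series' title. The 4 groups had 2 arrays each, which the design text calls biological replicates: control cells without H2O2, control cells with 4 mM H2O2, mutant cells without H2O2 and mutant cells with 4 mM H2O2. Cells were in exponential phase and were collected at an OD600 of 1.0. The kind of TFIIB change, the time spent in H2O2 and whether the mutant is 1 clone were not given in the sources used here. The RNA came from whole cultures, so that fewer cells with a transcript and less of it per cell cannot be told apart.

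The signal is given in scanner units after background subtraction, 1 probe per gene with 2 spots on each array. The median gene gave 3547 to 6022 units on a control array but only 6.04 to 9.75 on an array labelled mutant. Probes well above background made up 94.7% to 97.2% of a control array and 21.8% to 41.2% of an array labelled mutant. Spike-in probes, which report RNA added before labelling, averaged 2621 to 4079 units in the first kind of array and 3210 to 4693 in the second. Values were scaled by subtracting each array's 75th percentile on the log2 scale, and the spike-in probes served as the other scale. Without H2O2 the 2 control arrays differed by an SD of 0.0727 on the log2 scale over 5894 probes, a variance 1.45 times that between duplicate spots, and the 2 control arrays with H2O2 by an SD of 0.306, a variance 56.0 times that between duplicate spots. The first pair may thus be technical repeats in spite of the design text, which was not tested, and p-values would then measure too small a spread. All 8 arrays lie on 1 slide, with the H2O2 samples in one row and the other samples in the other, so that an effect of the row and of H2O2 cannot be told apart. The control arrays fill columns 1 and 2 and the arrays labelled mutant columns 3 and 4, so that strain and slide position cannot be told apart either. SUA7 itself gave 27713 ± 4377 units (SD, n = 2) in control cells without H2O2 and 20759 ± 9858 with it, and was clearly over background on none of the 4 arrays labelled mutant. The a-type mating genes MFA1, MFA2, STE2, BAR1 and STE6 gave 5684 to 40902 units on the 4 control arrays, all well above background, and 0 of these 5 genes were called with H2O2 by limma, with MFA1 alone at an unadjusted p under 0.05. Of the 4 alpha-type genes, MF(ALPHA)1 and MF(ALPHA)2 stayed at 36.0 to 66.0 units in control cells, while SAG1 gave 926 to 1639 and STE3 188 to 650, both well above background there, and STE3 was called lower with H2O2 at a log2 change of -0.85.

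In control cells grown with 4 mM H2O2, transcripts of the cycle enzymes were lower than without it. Relative to the array's 75th percentile, 6 of the 10 genes fell (limma, Benjamini-Hochberg adjusted p under 0.05), namely CIT1, IDH2, KGD1, LSC1, LSC2 and MDH1, and 0 rose. Among all 6045 genes tested, 14% were called lower and 13.1% higher. The median log2 change of the 10 genes was -0.83, beside 0.03 for all genes tested, and the single values ran from -1.69 for CIT1 to -0.16 for FUM1. All 10 genes read lower on both H2O2 arrays than on both arrays without it, in units and after scaling, a pattern that 61.7% of all genes tested showed in units and 41.3% after scaling. On the spike-in scale, where the median of all genes was -0.52, 8 of the 10 were called lower and 0 higher, beside 15.9% and 0.48% of all genes. These fits pool the spread of all 8 arrays, those labelled mutant included. In a fit of the control arrays without those labelled mutant, 9 of the 10 were called lower on the 75th percentile scale. Of the 6045 genes, 1567 were then called lower and 1906 higher. The called changes depend on counting the 2 control arrays without H2O2 as separate samples. With these 2 arrays averaged and counted as 1 sample, 0 of the 10 genes passed, with limma adjusted p from 0.0535 to 0.770. At an unadjusted p under 0.05 there were 6 then and 9 with the arrays kept apart. Left out in turn, replicates 1 and 2 of the control without H2O2 took the count to 0 and 1, and replicate 2 of the control with H2O2 took it to 2.

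**Figure D1:**
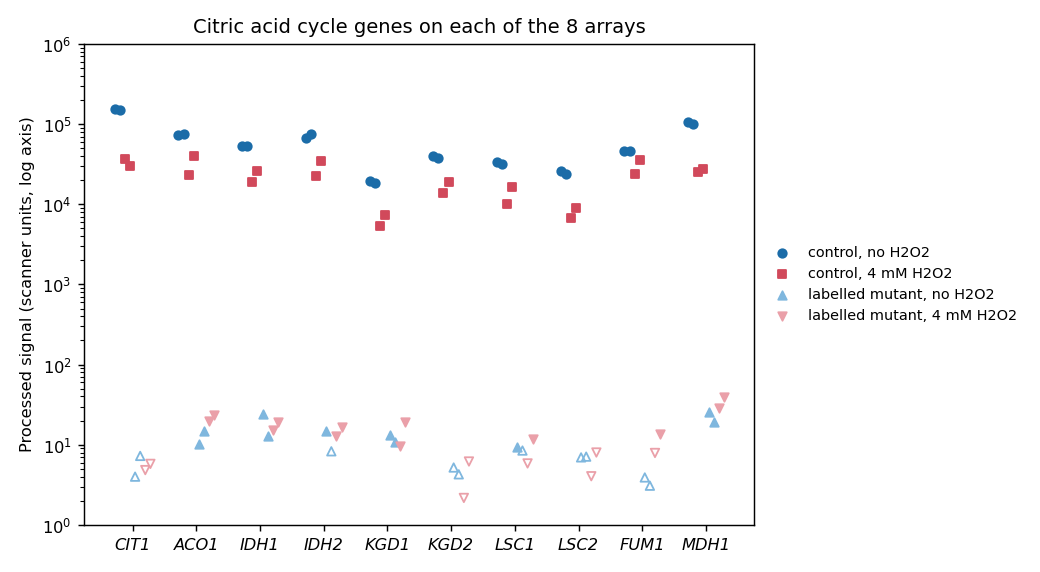
Processed signal in scanner units (log axis) of the 10 genes on each of the 8 arrays; each symbol is 1 array, filled where the probe was well above background and open where it was not. In every gene both control arrays with H2O2 lie below both control arrays without it, and all arrays labelled mutant read between 2.17 and 39.2 units; heights of different genes are not comparable, since probes differ.

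**Figure D2:**
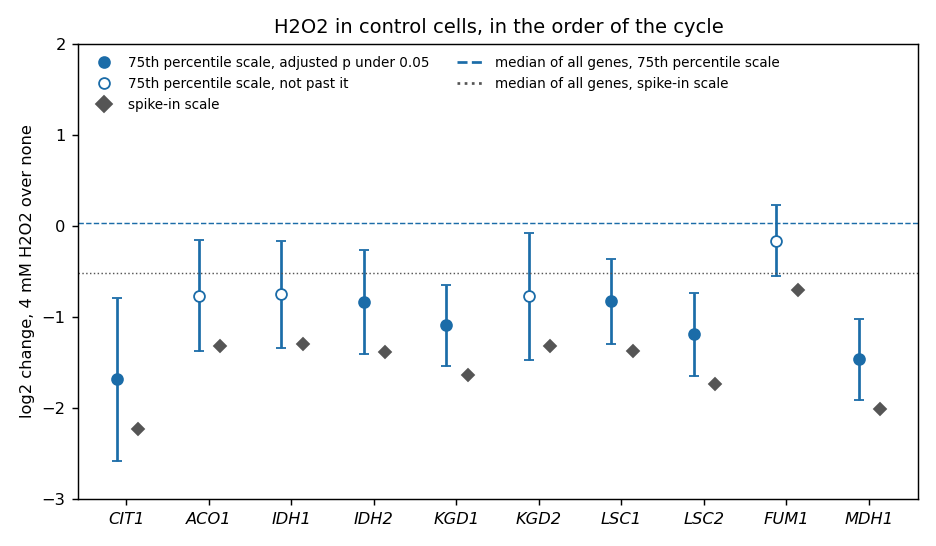
The log2 change with 4 mM H2O2 in control cells for each gene, in the order of the cycle: circles with 95% confidence intervals from limma on the 75th percentile scale (filled where the adjusted p is under 0.05) and diamonds on the spike-in scale, with the median of all genes tested as a dashed and a dotted line. All 10 genes lie below both their medians, from -1.69 for CIT1 to -0.16 for FUM1 on the 75th percentile scale.

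CIT1 (YNR001C, chromosome XIV, positions 629622 to 631061 on the minus strand of release R64-1-1, as for all positions here) encodes the mitochondrial citrate synthase that forms citrate from acetyl-CoA and oxaloacetate. Its signal was 153059 and 149977 units without H2O2 and 37219 and 29663 units with it. Both H2O2 arrays were far below both others. Relative to the 75th percentile it was 3.22-fold lower, a log2 change of -1.69 ± 0.38 (SE, n = 2 arrays a group, limma adjusted p = 0.0199). The 2 H2O2 arrays stood apart from each other after scaling, at 2.02 and 1.20 on the log2 scale (SD 0.578). CIT1 had the widest standard error of the 10 genes. It also draws on the arrays labelled mutant, where the SD without H2O2 was 0.715 and CIT1 was not well above background.

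ACO1 (YLR304C, chromosome XII, positions 735212 to 737548, minus strand) encodes aconitase, which turns citrate into isocitrate. Its signal was 72954 and 74837 units without H2O2 and 23318 and 40341 units with it. The groups did not overlap, but the H2O2 arrays differed widely in units. The log2 change of -0.77 ± 0.26 missed the threshold (limma adjusted p = 0.0682), while on the spike-in scale it was -1.31 and passed (limma adjusted p = 0.0369).

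IDH1 (YNL037C, chromosome XIV, positions 557920 to 559002, minus strand) and IDH2 (YOR136W, chromosome XV, positions 580250 to 581359, plus strand) encode the regulatory and the catalytic subunit of the NAD-dependent isocitrate dehydrogenase. IDH1 read 53192 and 53846 units without H2O2 and 19190 and 26297 with it. IDH2 read 67074 and 74464 units without H2O2 and 22629 and 34394 with it. In both genes the arrays of the 2 groups were apart, with the second H2O2 replicate the higher of its pair. The log2 change was -0.75 ± 0.25 for IDH1 (limma adjusted p = 0.0640) and -0.84 ± 0.24 for IDH2 (limma adjusted p = 0.0417), so that IDH2 passed and IDH1 did not. The difference between the subunits, IDH2 less IDH1, was -0.09, with a 95% interval of -0.71 to 0.53 in a fit with IDH1 as the reference.

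KGD1 (YIL125W, chromosome IX, positions 122689 to 125733, plus strand) encodes the 2-oxoglutarate dehydrogenase component of the complex that makes succinyl-CoA, and KGD2 (YDR148C, chromosome IV, positions 753675 to 755066, minus strand) its dihydrolipoyl transsuccinylase. KGD1 read 19369 and 18263 units without H2O2 and 5331 and 7280 with it. KGD2 read 40387 and 38075 units without H2O2 and 13813 and 18966 with it. Each gene's groups were clearly apart. KGD1 was 2.13-fold lower, with a log2 change of -1.09 ± 0.19 (limma adjusted p = 0.00876), while the change of KGD2, -0.77 ± 0.30, missed the threshold on the 75th percentile scale (limma adjusted p = 0.0970) and on the spike-in scale (-1.32, limma adjusted p = 0.0566). The difference of KGD2 less KGD1 was 0.32, with a 95% interval of -0.22 to 0.85, and did not pass. For KGD2 the SD after scaling was 0.0587 and 0.0230 in control cells without and with H2O2. On the arrays labelled mutant, which the standard error also draws on, it was 0.0927 and 0.687.

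LSC1 (YOR142W, chromosome XV, positions 593057 to 594046, plus strand) and LSC2 (YGR244C, chromosome VII, positions 978036 to 979319, minus strand) encode the alpha and the beta subunit of succinyl-CoA ligase, the step of the cycle that yields ATP directly. LSC1 read 33612 and 31495 units without H2O2 and 10105 and 16614 with it. LSC2 read 25914 and 23952 units without H2O2 and 6697 and 8867 with it. Both subunits were lower on both H2O2 arrays. LSC1 was 1.77-fold lower, with a log2 change of -0.83 ± 0.20 (limma adjusted p = 0.0239), and LSC2 was 2.28-fold lower, with a log2 change of -1.19 ± 0.19 (limma adjusted p = 0.00731). The difference of LSC2 less LSC1 was -0.36, with a 95% interval of -0.92 to 0.19, and did not pass.

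FUM1 (YPL262W, chromosome XVI, positions 47336 to 48802, plus strand) encodes fumarase, which in yeast works both in the mitochondrion and in the cytosol. Its signal was 46664 and 45655 units without H2O2 and 23993 and 35425 units with it. In units both H2O2 arrays were lower, and after scaling the 4 values lay close together, at 1.60 and 1.57 without H2O2 and 1.39 and 1.46 with it. The log2 change was -0.16 ± 0.17 (limma adjusted p = 0.522), with a 95% interval of -0.55 to 0.23. On the spike-in scale it was -0.71 and did not pass either (limma adjusted p = 0.262).

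MDH1 (YKL085W, chromosome XI, positions 279123 to 280127, plus strand) encodes the mitochondrial malate dehydrogenase that closes the cycle. Its signal was 106985 and 99812 units without H2O2 and 25465 and 27409 units with it. In units both arrays of a group were near each other and far from the other group, while after scaling the H2O2 arrays stood at 1.47 and 1.09, both below the 2.79 and 2.70 without H2O2. MDH1 was 2.76-fold lower, with a log2 change of -1.47 ± 0.19, and had the smallest adjusted p of the 10 genes (limma adjusted p = 0.00480).

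The fitted changes differed in size between steps of the cycle. Differences between genes were tested by scaling all genes to 1 member at a time, an alternative added after seeing the data, over 45 pairs of members and with p adjusted over the 6044 other genes in each fit. No adjustment was made over the pairs. FUM1 had the smallest fall of the members, so that with it as the reference the other members had to lie lower. With FUM1 as the reference, 5 of the other 9 members were lower, where 9.23% of all genes were: CIT1 by a further log2 difference of -1.53 ± 0.44 (limma adjusted p = 0.0394), MDH1 by -1.30 ± 0.22 (limma adjusted p = 0.00809), LSC2 by -1.03 ± 0.20 (limma adjusted p = 0.0126), KGD1 by -0.93 ± 0.18 (limma adjusted p = 0.0112) and LSC1 by -0.67 ± 0.19 (limma adjusted p = 0.0370). The differences of ACO1, IDH1, IDH2 and KGD2 from FUM1 ran from -0.68 to -0.59 and did not pass. Of the 45 pairs, the 5 that passed with FUM1 as the reference passed whichever gene was the reference. In the reverse fits FUM1 was called higher, as were 80.4% of all genes with CIT1 as the reference and 85.8% with MDH1. The share was 77.6% with LSC2, 73.9% with KGD1 and 55% with LSC1, so that the reverse fits add little. A pair that passed with 1 reference was MDH1 and IDH1, where IDH1 was higher by 0.72 relative to MDH1 (limma adjusted p = 0.0272) in a fit that called 85.8% of all genes higher, and with IDH1 as the reference the pair did not pass (limma adjusted p = 0.0862). With the control arrays without H2O2 averaged to 1 sample, 0 of the 9 members differed from FUM1. The same count of 0 was reached without replicate 1 or without replicate 2 of these arrays, and also without replicate 2 of the control arrays with H2O2.

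**Figure D3:**
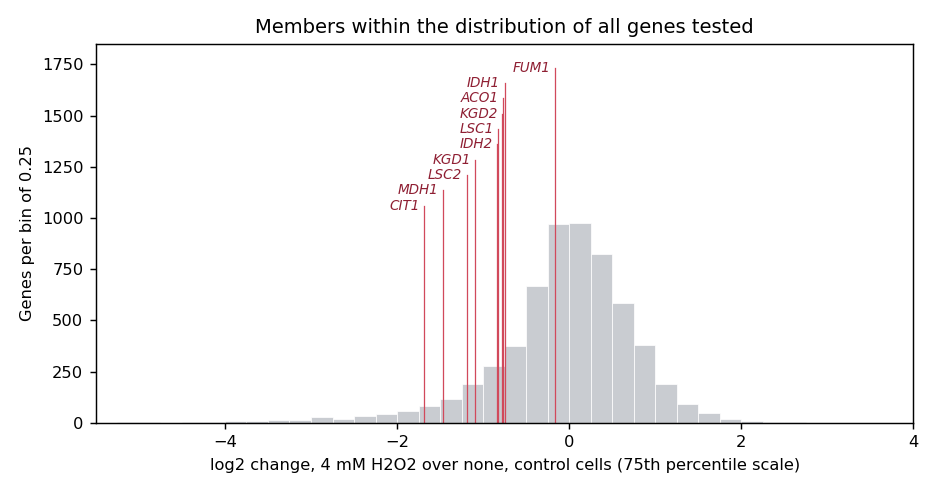
Histogram of the log2 change with H2O2 in control cells (75th percentile scale) for the 6045 genes tested, in bins of 0.25, with the 10 cycle genes as red lines whose heights only separate the names. All 10 lines lie left of 0, with FUM1 nearest to it at -0.16 and CIT1 farthest at -1.69.

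Across the 4 control arrays, the members nearest to each other after centring were IDH1 and KGD2, with a root mean square difference of 0.0383 on the log2 scale, then KGD1 and LSC2 at 0.0528 and ACO1 and LSC1 at 0.0608. The pair farthest apart was CIT1 and FUM1, at 0.825. Among 5184 other named genes, the nearest to 9 of the members was NTH1 for CIT1, PET123 for ACO1, FUN14 for IDH1, PSY3 for IDH2, PCL5 for KGD1, ATP5 for KGD2, YAT2 for LSC2, SNX3 for FUM1 and DBP1 for MDH1. These 9 root mean square differences ran from 0.00586 (FUN14) to 0.0320 (PSY3), over 4 arrays. NTH1 encodes a trehalase and ATP5 a subunit of the mitochondrial ATP synthase.

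The remaining enzyme of the cycle, succinate dehydrogenase, oxidises succinate and passes the electrons to the respiratory chain. Of its 8 genes tested, subunits and assembly factors together, 5 fell with H2O2 and 0 rose, with a median log2 change of -0.88, where 14% of all genes fell and 13.1% rose, shares that also stand beside the counts of the lists that follow. SDH1, the flavoprotein subunit, read 76909 and 69683 units without H2O2 and 15115 and 15183 units with it, and was 3.41-fold lower (limma adjusted p = 0.00846). SDH2, the iron-sulfur subunit, was 2.90-fold lower (limma adjusted p = 0.00610), and the membrane anchors SDH4 and SDH3 were 2.44-fold and 1.76-fold lower. With the control arrays without H2O2 averaged, 0 of the 8 passed and 5 had an unadjusted p under 0.05.

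The pyruvate dehydrogenase complex feeds acetyl-CoA into the cycle and shares a subunit with the 2-oxoglutarate dehydrogenase complex. Of 10 genes for this complex, its regulators and the shared or accessory subunits, 4 fell and 0 rose, with a median of -0.36. These 4 were PKP2 (-1.54) and PKP1 (-1.02), kinases that inhibit pyruvate dehydrogenase, PTC6 (-0.90), a phosphatase of that complex, and KGD4 (-0.97), an accessory subunit of the 2-oxoglutarate dehydrogenase complex. KGD4 read 11437 and 11173 units without H2O2 and 3764 and 4423 with it. The shared subunit LPD1, named after its value was seen, had a log2 change of -0.39 and did not pass (limma adjusted p = 0.106). Nor did PDA1 (0.10), PDB1 (-0.13), LAT1 (-0.33) and PDX1 (-0.25), subunits of the pyruvate dehydrogenase complex itself. Their limma adjusted p ran from 0.422 to 0.786, and they too were named after their values were seen. Under the same averaging 0 of the 10 passed and 4 had an unadjusted p under 0.05.

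Isozymes catalyse the same reactions elsewhere in the cell or under other growth conditions. Of 10 tested, 6 fell and 0 rose, with a median of -0.81. CIT3, a second mitochondrial citrate synthase, read 4246 and 4107 units without H2O2 and 582 and 584 with it, a log2 change of -2.34 ± 0.33 (limma adjusted p = 0.00540). The NADP-dependent isocitrate dehydrogenases IDP2 of the cytosol and IDP3 of the peroxisome changed by -2.16 and -1.96, and SHH3, a homolog of SDH3, by -1.58. Under that averaging 1 of the 10 passed, which was IDP2 (limma adjusted p = 0.0431).

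Genes for pyruvate entry, replenishment of the cycle and carriers of its acids were called in both directions, in numbers near the share over all genes: of 14 tested, 3 fell and 3 rose, with a median of 0.07, beside 14% and 13.1% of all genes. MPC3, a subunit of the mitochondrial pyruvate carrier, changed by -2.76, the succinate-fumarate carrier SFC1 by -1.94, and the pyruvate carboxylase PYC1 by -0.98. YHM2, a carrier of citrate and 2-oxoglutarate, was higher by 0.76 (limma adjusted p = 0.0258), but on the spike-in scale its change was 0.22 and 0 of the 14 were called higher. Averaging the control arrays without H2O2 left 0 of the 14 past the threshold and 4 with an unadjusted p under 0.05. MPC3 read 97213 and 94941 units without H2O2 and 17299 and 5829 with it, so that its H2O2 arrays stood far apart.

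Of 9 genes tested for lipoate attachment and late iron-sulfur assembly, which aconitase and the dehydrogenase complexes depend on, 0 were called, with a median of -0.10. The 4 with the smallest p were ISA1 (-0.65), LIP2 (-0.51), IBA57 (-0.30) and BOL1 (0.25), and of these ISA1 (limma adjusted p = 0.0688) and LIP2 had an unadjusted p under 0.05.

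Among 16 regulators known to act on genes of the cycle, 4 fell and 0 rose, with a median of -0.37, beside 14% and 13.1% of all genes. HAP4 encodes the activating subunit of the Hap complex, which activates genes of respiration and of the cycle, and HAP5 encodes one of its DNA-binding subunits. HAP4 read 77740 and 77321 units without H2O2 and 23864 and 12753 with it, a log2 change of -1.65 ± 0.46 (limma adjusted p = 0.0364), and HAP5 changed by -0.91 (limma adjusted p = 0.00907). The other subunits of the complex, HAP2 (-0.45, limma adjusted p = 0.133) and HAP3 (0.01, limma adjusted p = 0.961), did not pass. They were named after their values were seen. CAT8 and ADR1, activators of genes for growth on carbon sources other than glucose, changed by -2.48 and -2.22, and with the control arrays without H2O2 averaged these were the 2 regulators that still passed (limma adjusted p = 0.0408 and 0.0431). These lists were drawn up with results of these arrays known, so that their counts describe the arrays and give no independent evidence of direction.

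**Figure D4:**
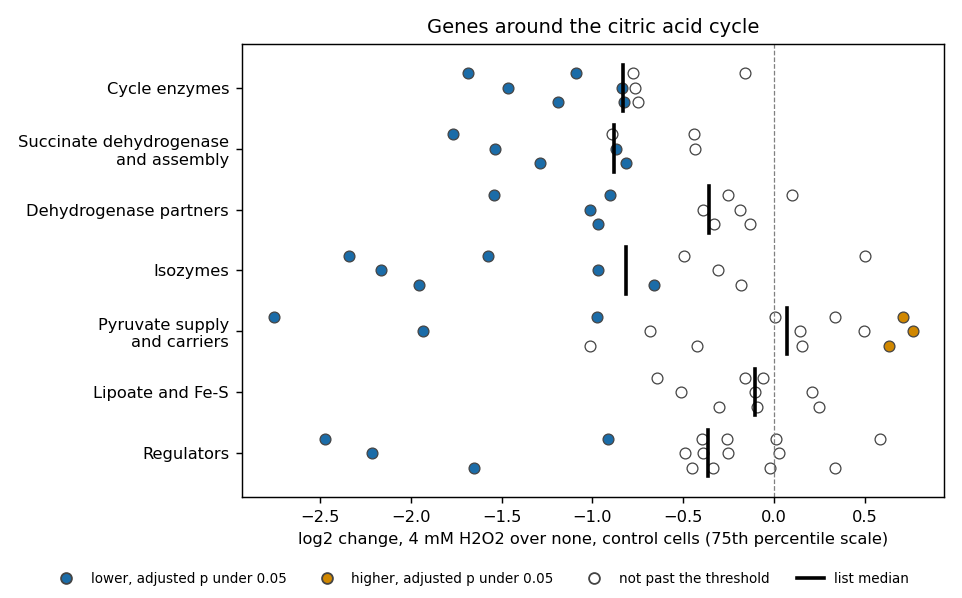
The log2 change with H2O2 in control cells (75th percentile scale) of each gene tested in the cycle enzymes and 6 lists around them; each circle is 1 gene, blue where it was called lower, orange where called higher and white otherwise, and the bar is the list's median. List medians run from -0.88 for succinate dehydrogenase to 0.07 for pyruvate supply and carriers, with called genes in both directions in that last list alone among the 7.

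On the arrays labelled mutant, the 10 genes read 2.17 to 39.2 units, near background. Whether signal this low comes from the cells or from a failed hybridisation was not tested, and it limits each comparison with these arrays. Without H2O2, CIT1, KGD2, LSC2 and FUM1 were not well above background on either array, IDH2 and LSC1 were so on 1, and ACO1, IDH1, KGD1 and MDH1 on both. MDH1 read 25.5 and 19.4 units without H2O2 and 28.6 and 39.2 units with it. Duplicate spots of the members on these arrays differed by a median of 0.324 on the log2 scale and by up to 2.72, against 0.0583 and up to 0.192 on the control arrays.

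Without H2O2, 9 of the 10 genes were lower on the arrays labelled mutant than on the control arrays relative to the 75th percentile and 0 were higher, where 28.8% of all genes were called lower and 50.5% higher. Of the 9, CIT1, KGD2, LSC2 and FUM1 were in this medium measured in control cells only. These 4 genes were tested because of their high signal in control cells. So was LSC1, well above background on 1 mutant array in each medium, so that the count in itself carries little. KGD1 was the exception, at a log2 difference of -0.09 ± 0.19 (limma adjusted p = 0.680). For the 4 genes not measured on either mutant array only a bound can be given, which sets the mutant array at the lowest signal well above background on it where the gene's own signal is dimmer: CIT1 was at least 13.5-fold lower, FUM1 at least 4.12-fold, KGD2 at least 3.50-fold and LSC2 at least 2.22-fold. Of the genes measured on both arrays, ACO1 differed by -2.01 (limma adjusted p = 0.000227), MDH1 by -1.65 (limma adjusted p = 0.000116) and IDH1 by -1.03 (limma adjusted p = 0.00632). On the spike-in scale all 10 were called lower, as were 99.6% of all genes, whose median was -10.19. The 6 genes measured on 1 or both of the mutant arrays differed there by -12.93 (IDH2) to -10.92 (KGD1), and the other 4 were at least 4035-fold (LSC2) to at least 24541-fold (CIT1) lower. In the authors' deposited table for this medium, CIT1 was listed as 34.6-fold down (authors' corrected p = 0.0490), FUM1 as 10.6-fold down (authors' corrected p = 0.00231), IDH1 as 1.06-fold down (authors' corrected p = 0.914) and KGD1 as 1.09-fold up (authors' corrected p = 0.495).

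With H2O2, 6 of the 10 were lower on the arrays labelled mutant and 1, KGD1, was higher, where 28.3% of all genes were called lower and 51.7% higher. Of the 6, CIT1, KGD2 and LSC2 were well above background on neither mutant array. These genes, LSC1 and FUM1 were tested because of their high signal in control cells, so that the count in itself carries little. Relative to the 75th percentile, CIT1 was at least 4.00-fold lower and KGD2 at least 1.95-fold lower. That percentile stood at 9.95 and 14.5 units on these mutant arrays, again near the lowest signal well above background, 8.61 and 9.73 units. The bounds are not strict here either, since ODC2 at 11.1 units on the first of these arrays was not well above background. No fold can be given for LSC2. Its mean level in control cells, -0.50 after scaling, lay under the mean of the lowest levels measured on the 2 mutant arrays. FUM1 and LSC1 were each measured on 1 of the 2 mutant arrays. Their fitted values, -1.62 (limma adjusted p = 6.35e-05) and -0.79, thus include a signal not told from background. IDH2, measured on both, differed by -1.08. KGD1 differed by 0.98 ± 0.19 (limma adjusted p = 0.00206) on the 75th percentile scale and by -9.17 on the spike-in scale, on which all 10 genes and 99.4% of all genes were called lower. Its level in control cells with H2O2, -0.80 after scaling, lay under the lowest level well above background on either mutant array. A gene at that level and measured on both mutant arrays could only read higher, so that this call carries little. ACO1 (-0.65), IDH1 (-0.52) and MDH1 (0.20) did not pass. In the authors' deposited table for the medium with H2O2, KGD1 was listed as 1.85-fold up (authors' corrected p = 0.216), MDH1 as 2.15-fold up (authors' corrected p = 0.0435), CIT1 as 7.70-fold down (authors' corrected p = 0.0547) and KGD2 as 8.63-fold down (authors' corrected p = 0.0764). That table also listed ACO1 as 1.27-fold up and IDH1 as 1.14-fold up, against the differences below 0 given here, with authors' corrected p of 0.204 and 0.361. The comparisons of the strains and of the media share arrays, so that their values are set side by side and not correlated.

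Within the arrays labelled mutant, 0 of the 10 genes were called with H2O2 by limma and 2, FUM1 and LSC2, had an unadjusted p under 0.05. Among all genes, 0.0331% were called higher and 0% lower. FUM1 read 3.91 and 3.08 units without H2O2 and 7.90 and 13.8 units with it, of which only the last was well above background, so that no fold is given.

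The test of whether the H2O2 effect differed between the strains called 3 of the 10 genes higher in the mutant than in control cells, where 6% of all genes were called higher and 5.57% lower. They were MDH1 (1.85 ± 0.27, limma adjusted p = 0.0195), KGD1 (1.07 ± 0.27, limma adjusted p = 0.0476) and FUM1, whose fitted value is no measured difference, since it was well above background on 1 of the 4 arrays labelled mutant. On the spike-in scale 3 of the 10 were called higher, beside 7.63% of all genes. They were not the same genes: MDH1, FUM1 and ACO1 passed there and KGD1 did not (limma adjusted p = 0.0798). For MDH1 the difference joined the fall in control cells, -1.47, to a change of 0.38 in the mutant that did not pass. With the control arrays without H2O2 averaged, 0 of the 10 passed this test and 4 had an unadjusted p under 0.05. The count was also 0 with the slide column as a block, with quantile normalization and without either replicate of those arrays, 1 without replicate 2 of the control with H2O2 and 5 without replicate 1 of the mutant without H2O2. The part played by the near-background signal of the arrays labelled mutant was not tested.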

How the data were processed

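Per the file headers, the authors' spot intensity values were made with Feature Extraction 10.7.1.1, whose processed signal is background-subtracted. Per the labels, RNA was labelled with Cy3 in 1 colour. The authors' deposited tables, 1 per medium, also hold corrected p-values, absolute fold changes with direction, and normalized log2 values, and 8 raw columns in them were not used here. Gene positions come from those tables. Duplicate spots were averaged on the log2 scale, less the 75th percentile of their array. The other scale subtracted the mean of 7 of the 10 E1A spike-in probes, those well above background on all arrays. Testing covered 6045 genes, each well above background throughout 1 group or more, and used limma 3.58.1 (R 4.3.3) on all 8 arrays together with 4 residual degrees of freedom, with Benjamini-Hochberg adjustment and a threshold of 0.05. p-values are two-sided and measure the spread between these arrays. With the number of arrays limiting the precision, the same fit on simulated data found 41.5% of 200 genes changed by a log2 of 1 and 87% of 200 changed by 2 for H2O2 in control cells. The simulated noise of a gene was equal in all groups and independent between arrays. In the data the SD between arrays ran from 0.0727 to 0.442 by group, so that these shares are only a rough guide. Named genes were the 10 members, SUA7, up to 4 genes per list with the smallest p plus up to 2 called against the list's median, and the gene nearest to each member. Genes named after their values were seen are marked so in the text. The members and lists were chosen with earlier results of these data known. Alternatives covered scaling, background correction, filters, probes, blocks and each array left out in turn. Same-numbered control arrays deviated with a correlation of 0.211 and other groups with -0.0724 to 0.0164, so that the numbers were not taken to pair the arrays. LIP3 was not analysed here, and the gene nearest to LSC1 is not reported here.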

Additional observations from a re-analysis of the deposited data

Results flagged for a closer look

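For 3 of the 10 genes the H2O2 effect differed between the strains in limma's interaction test as reported, and for 0 with the control arrays without H2O2 averaged, without either of them, with the slide column as a block or with quantile normalization. The effect on the arrays labelled mutant minus that on the control arrays was 1.85 on the log2 scale for MDH1 (limma adjusted p = 0.0195) and 1.07 for KGD1 (limma adjusted p = 0.0476). MDH1 and KGD1 were well above background on all 4 arrays labelled mutant. A fall there as large as in control cells would have brought both near or under the lowest signals well above background. With H2O2 these were 8.61 and 9.73 units, so that the MDH1 and KGD1 calls carry little about the mutant. On the spike-in scale MDH1 passed (limma adjusted p = 0.00866) and KGD1 did not (limma adjusted p = 0.0798). For FUM1 the fitted value was 1.54, which is no measured difference, since FUM1 was well above background on 1 of these arrays.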

How the results depend on the processing

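All 10 genes kept a log2 change below 0 with H2O2 in control cells under the 10 alternative settings that move these values (13 others change only the error or the tests and leave the values as they are), but the number called lower did not hold at 6. It was 1 with quantile normalization, 10 with normexp background correction and the 75th percentile, 0 with normexp and quantile normalization, and 0 with the control arrays without H2O2 averaged, both in the fit of all groups and in one of control arrays alone, the latter added after seeing the data. With only the control arrays in the fit and none averaged, it was 9. Leaving out 1 array at a time gave 0 to 8, and for the count relative to FUM1, 5 as reported, 0 to 6. That count was 9 with normexp, 9 with the control arrays alone and 0 with the arrays averaged. Over all genes, 847 lower and 790 higher calls became 74 and 36 with quantile normalization, 1965 and 2270 with normexp and the 75th percentile, 45 and 14 with normexp and quantile normalization, 964 and 29 on the spike-in scale, 1567 and 1906 with only the arrays compared, 556 and 431 with the slide column as a block, 86 and 38 with the arrays averaged and 0 and 0 in the control arrays alone, and ran from 65 to 1069 and from 20 to 1194 with 1 array left out. For the arrays labelled mutant with H2O2, the members called lower became 10 on the spike-in scale (5 to 8 with 1 array left out), and the 1 called higher became 0 with the median, the spike-in probes or the 75th percentile of only those genes measured on all 8 arrays, and 2 with quantile normalization, normexp or both. Single values reversed there: KGD1 at -9.17 and MDH1 at -9.95 on the spike-in scale, MDH1 at -0.55 with the median and -0.86 with normexp, and LSC2, unmeasured on those mutant arrays, at 0.22 with normexp. Without H2O2 the count of 9 lower was 6 with normexp and quantile normalization, 6 with the authors' deposited normalized values, 8 with quantile normalization, and 9 with any 1 array left out. For H2O2 in the mutant 1 gene was called higher with quantile normalization, and 0 to 1 with 1 array left out. The 3 interaction calls became 0 with quantile normalization, with normexp and quantile normalization, with the slide column as a block and with the arrays averaged, 10 with normexp and the 75th percentile, and 0 to 5 with 1 array left out. The causes of these moves were not tested. With the replicate block, 5 members were called lower with H2O2 in control cells and 2 in the interaction. Where an array was left out, the lone array of its group was assumed to vary like the others. The authors' normalized values lie in separate tables per medium and gave no H2O2 comparison. Signal over background limits every value of the arrays labelled mutant.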
